A study of Mus musculus with 8 samples.

Results

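The 4 Egr genes of the mouse, Egr1, Egr2, Egr3 and Egr4, were examined by name among the 37310 genes of the annotation, of which 22380 are protein-coding. NFATc2 peaks were assigned to a gene when their summit lay within 100 kb of one of its transcription start sites (TSSs), and H3K4me3 peaks when they overlapped the gene or came within 1 kb of a TSS. The cells were D1, a long-term splenic dendritic cell (DC) line of C57BL/6 origin, and curdlan, a beta-glucan that binds the receptor dectin-1, was given at 10 μg/ml. NFATc2 (NFAT1 in the sample labels) was mapped after 30 min of curdlan in D1 cells that carried a V5-tagged copy delivered with a GFP reporter, so the signal is that of the tagged protein. H3K4me3, a histone mark found mainly at the starts of active genes, was mapped in 3 conditions: without treatment (NT), with curdlan for 2 h, and with curdlan plus FK506 for 2 h. FK506 is an inhibitor of calcineurin that holds NFAT out of the nucleus. No FK506 dose is given here, since the labels do not state it for these libraries. Each of the 4 peak lists came from 1 ChIP library and 1 input library, so no comparison between conditions has a replicate check, and the intervals below cover counting error only.

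EGR proteins are zinc-finger transcription factors that bind GC-rich DNA, and their genes are immediate-early genes: growth factors, antigen receptors and pattern receptors switch them on within minutes, largely through MAP kinases, ternary complex factors such as ELK1 and serum response factor (SRF), which binds the CArG box. In lymphocytes Egr2 and Egr3 are known targets of NFAT and restrain activation, while Egr1 is the general early-response member. Egr4 is best known from neurons and male germ cells. The proteins NAB1 and NAB2 bind EGR1, EGR2 and EGR3 and repress their activity.

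On mm9, Egr1 (ENSMUSG00000038418.6) lies on the plus strand at chr18:35020861-35024638, Egr2 (ENSMUSG00000037868.8) on the plus strand at chr10:66998223-67004936, Egr3 (ENSMUSG00000033730.2) on the plus strand at chr14:70477252-70479964, and Egr4 (ENSMUSG00000071341.3) on the minus strand at chr6:85461125-85463583. All are short, from 2459 to 6714 bp. Egr2 has 6 annotated TSSs, and positions at this gene are given from the start at 67000617.

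The ChIP libraries held 14377535 tags for NFATc2 and from 16662316 to 21289349 for H3K4me3, and 5.58% of NFATc2 tags and from 51.3% to 57.9% of H3K4me3 tags lay in peaks. An H3K4me3 peak covered a TSS at 9 of 10 dendritic and myeloid marker genes in each list, the exception being Flt3, and at 0 of 4 T-cell, 0 of 3 B-cell, 0 of 4 fibroblast and 0 of 3 other lineage markers. By the wider rule used for the Egr genes, Flt3 had tags in peaks that did not cover a TSS, from 272 to 297 in the 3 lists. Of the T-cell and B-cell markers, 3 had such tags as well. They numbered 1054 to 1249 at Cd79a and 202 to 224 at Pax5 in the 3 lists, and 116 and 159 at Cd4 in NT and curdlan.

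Sequences at Egr2 are shown because it had the most NFATc2 summits of the family within 100 kb and a set of them far downstream of the gene. Each of the first 3 lines holds the 201 bases centred on a summit, on the plus strand of mm9: the summit at the promoter, the summit with the most tags at this gene, and one of the most distant. The last line holds the 250 bases before the Egr2 start in RefSeq on GRCm38.p6, at chr10:67537619-67537868, which is another build and shares no coordinates with the peaks. Capitals mark the NFAT core GGAAA on either strand, extended to GGAAAA where present, the AP-1 word TGACTCA and the CArG box.
Egr2 summit 597 bp upstream, chr10:66999920-67000120: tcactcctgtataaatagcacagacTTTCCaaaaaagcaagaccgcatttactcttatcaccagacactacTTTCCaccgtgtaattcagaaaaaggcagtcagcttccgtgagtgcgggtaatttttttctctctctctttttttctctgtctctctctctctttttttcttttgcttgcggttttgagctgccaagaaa
Egr2 summit 60966 bp downstream, chr10:67061483-67061683: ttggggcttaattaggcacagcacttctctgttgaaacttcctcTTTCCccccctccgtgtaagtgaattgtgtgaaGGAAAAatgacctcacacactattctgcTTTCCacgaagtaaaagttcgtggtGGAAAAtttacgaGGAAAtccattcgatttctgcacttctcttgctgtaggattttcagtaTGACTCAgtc
Egr2 summit 91131 bp downstream, chr10:67091648-67091848: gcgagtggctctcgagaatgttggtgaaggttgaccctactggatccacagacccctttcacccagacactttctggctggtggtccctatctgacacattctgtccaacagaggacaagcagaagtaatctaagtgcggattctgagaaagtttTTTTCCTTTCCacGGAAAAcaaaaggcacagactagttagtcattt
Egr2 bases before the RefSeq start: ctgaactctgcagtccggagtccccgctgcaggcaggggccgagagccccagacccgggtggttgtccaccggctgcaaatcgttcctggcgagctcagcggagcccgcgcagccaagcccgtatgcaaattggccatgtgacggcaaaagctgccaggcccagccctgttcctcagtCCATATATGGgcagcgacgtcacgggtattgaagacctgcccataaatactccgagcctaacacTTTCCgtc

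NFATc2 binding differed widely within the family. Egr2 had 8 summits within 100 kb, Egr3 had 7, Egr1 had 5 and Egr4 had none. Within 30 kb the order turned, with 1 at Egr2, 5 at Egr3 and 3 at Egr1. At least 1 summit was present at 55.3% of protein-coding genes and at least 5 at 6.81%, and 3 of 4 members had at least 5. With peaks of p up to 1e-10 only, Egr1 had 3, Egr2 had 6 and Egr3 had 7. At least as many summits as at Egr2 were found at 1.13% of protein-coding genes, and at least as many as at Egr3 at 2.20%. The median gene had 1 summit. The 20 summits carried from 29 to 378 tags with a median of 103, and 8 of them lay above percentile 90 of all 9438 summits by tags. By fold enrichment the ranks differed. The summit of 378 tags was at percentile 50.4 in that measure, and 1 of 53 tags, also near Egr3, was at percentile 92.9. For 9 summits the nearest protein-coding TSS was that of the Egr gene itself, and for 11 it was another gene, so the count within 100 kb does not assign a target.

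**Figure D1:**
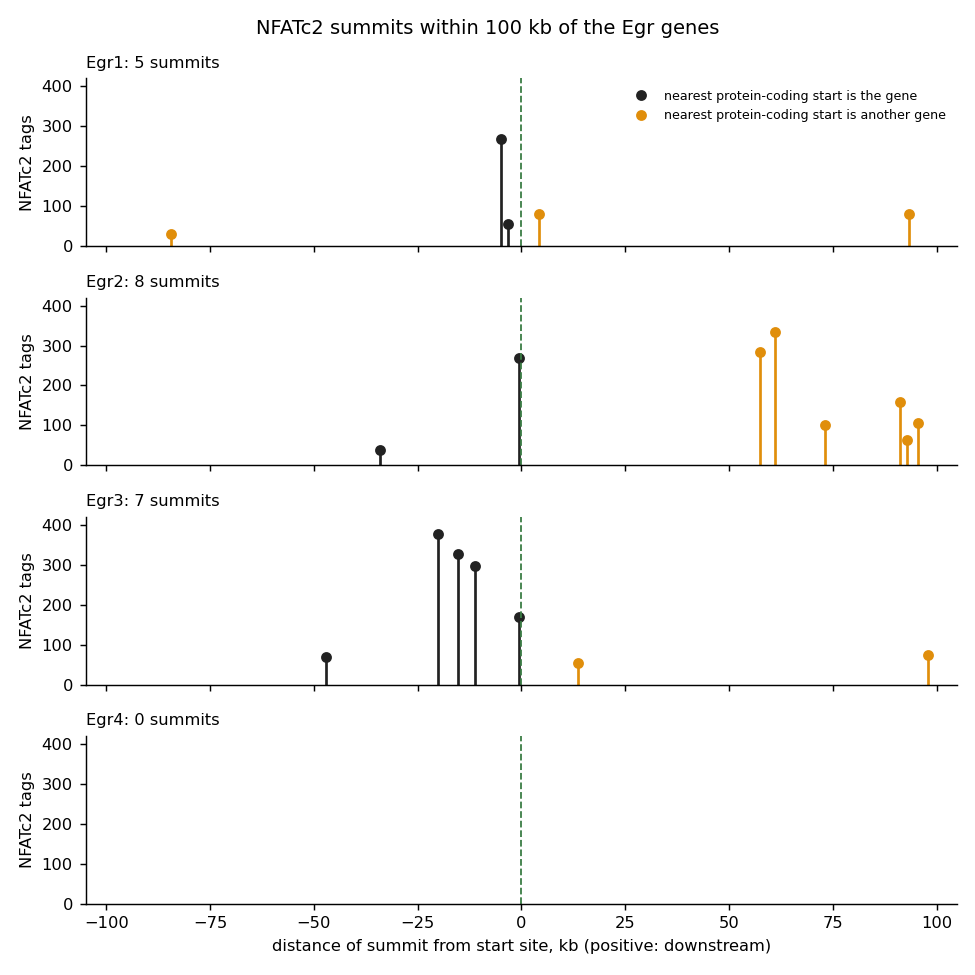
NFATc2 tags (vertical axis) at each summit within 100 kb of the 4 Egr genes against its distance from the start site in kb (horizontal axis), from 1 library after 30 min of curdlan. Black stems are nearest to the Egr gene and orange stems are nearer to another protein-coding gene; the 6 distal Egr2 summits lie downstream, those with the most tags at Egr3 lie upstream, and the Egr4 panel is empty.

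Egr1, the general early-response gene, had no NFATc2 summit within 1 kb of its start. Its strongest site, with 267 tags (236 to 301, exact 95% Poisson interval), lay 4864 bp upstream, and a weaker one of 56 tags (42.3 to 72.7) lay 3172 bp upstream. A site of 81 tags lay 4125 bp downstream of the start, past the gene's end, and was 223 bp from the start of Gm17507. The outer sites belonged by position to other promoters, with 29 tags 274 bp from the start of Kdm3b and 80 tags 242 bp from that of Hspa9. At Egr1 the site of 267 tags was the only one above percentile 90 of the list by tags, at percentile 97.3. By fold enrichment it was at percentile 88.4.

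Egr2, a factor of myelin formation and of lymphocyte restraint, had 1 site at its promoter, 597 bp upstream of the start and within an intron of a transcript that begins further upstream. This site carried 270 tags (239 to 304) with a fold enrichment of 37.8, percentile 97.8 of the list. A site of 39 tags lay 34.2 kb upstream. The other 6 sites lay from 57.5 to 95.4 kb downstream and held 1047 tags, 77.2% of all tags at summits counted for Egr2. Within this set the sites at 57.5 and 61.0 kb carried 285 (253 to 320) and 335 (300 to 373) tags, and those at 73.2, 91.1, 92.9 and 95.4 kb carried 101, 159, 62 and 105. All 6 were intergenic and outside H3K4me3 peaks in every condition, and the nearest protein-coding TSS was that of Gm10797, from 23.3 to 61.2 kb away. The 6 distal sites together thus held more tags than the promoter site. By fold enrichment each of them was below it, from 8.08 to 24.1 against 37.8. Which gene the distal set acts on was not measured.

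Egr3, the close relative of Egr2, carried its sites with the most tags upstream. The summit 20.2 kb upstream had 378 tags (341 to 418), that at 15.2 kb had 326 (292 to 363), and that at 11.1 kb had 298 (265 to 334). These 3 summits held 1002 tags, 73.3% of those counted for Egr3, within 9.1 kb of sequence. The promoter summit, 658 bp upstream, had fewer tags, 170 (145 to 198), and a fold enrichment of 41.1, percentile 98.5 of the list. By tags the upstream sites ranked above the promoter site, and by fold enrichment below it. The summits 47.1 and 20.2 kb upstream lay in an intron of Pebp4, which encodes a phosphatidylethanolamine-binding protein. Sites with fewer tags, 53 and 74, lay 13.7 kb downstream, nearest to Bin3, and 98.0 kb downstream, 22 bp from a start of Pdlim2. The site of 53 tags had a fold enrichment of 28.3. Those of the 3 upstream summits were lower, at 13.4, 24.7 and 21.3.

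Egr4 had no summit within 100 kb, and the nearest, of 58 tags, lay 179565 bp downstream. A summit within 1 kb of a TSS was present at 2 of 4 Egr genes, Egr2 and Egr3, and at 5.29% of protein-coding genes. Where no peak was called the signal was below the caller's threshold, which is not the same as no binding.

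The words at the summits differed between the genes. GGAAAA occurred within 100 bp of 6 of 8 Egr2 summits, 1 of 7 Egr3 summits and 0 of 5 Egr1 summits, and of 45.6% of all 9438 NFATc2 summits. Windows 1 kb to either side of the summits held it in 18.0% of cases. The shorter core GGAAA, added after the values were seen, occurred at 18 of the 20 summits, including 5 of 5 at Egr1, 8 of 8 at Egr2 and 5 of 7 at Egr3, against 86.7% of all summits and 48.1% of the flanking windows. The promoter sites of Egr2 and Egr3 thus had the core and not GGAAAA within 100 bp. In the sequence of the Egr2 promoter site shown above, both cores are on the minus strand, from 75 to 71 and from 29 to 25 bases before the summit. The window 61.0 kb downstream held 5 cores, 2 of them within GGAAAA, and 1 TGACTCA. The window 91.1 kb downstream held 3 cores, all between 56 and 72 bases after the summit.

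TGACTCA, the AP-1 word, occurred at 4 of 20 summits, namely that 4125 bp downstream of Egr1, that 61.0 kb downstream of Egr2 and those 20.2 kb upstream and 13.7 kb downstream of Egr3, and at 16.9% of all summits. The CArG box occurred at 2 of 20, the promoter site of Egr3 and the site 73.2 kb downstream of Egr2, and at 1.14% of all summits. The EGR word GCGNGGGCG was found at 0 of 20 member summits and 0.127% of all, and the CRE word TGACGTCA at 0 of 20 and 0.498%. All words were searched on both strands. RefSeq promoter entries were matched for 2 of 4 genes, with 5 entries for Egr2 and 1 for Egr4. In the Egr2 entry printed above, a CArG box begins 72 bases before the start, a word found in 1.63% of all 32851 promoter entries of 300 bases. Another Egr2 entry, at chr10:67537316-67537615, held a different CArG box, CCTTTTTTGG, and 1 GGAAAA, which 23.4% of entries hold. The Egr4 entry held none of the 5 longer words and 1 GGAAA core, which 61.3% of entries hold.

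H3K4me3 was present at Egr1, Egr2 and Egr3 before stimulation, was higher in the curdlan library at each of them, and was not called at Egr4 in any list. Levels are given as normalised tags, the tags in peaks at the gene per 1000000 tags of the library. Egr1 had 46.2 in NT (42.9 to 49.5), 111 after curdlan (107 to 116) and 82.2 after curdlan plus FK506 (78.3 to 86.4). Egr1 was lowest in NT and highest with curdlan, with no overlap of the counting intervals. Egr2 had 105 in NT (100 to 110), 140 after curdlan (135 to 145) and 113 after curdlan plus FK506 (108 to 117). The interval with FK506 overlapped that of NT, and the curdlan value was above both. Egr3 had 49.8 in NT (46.5 to 53.3), 67.8 after curdlan (64.3 to 71.4) and 60.6 after curdlan plus FK506 (57.2 to 64.2). Its FK506 and curdlan intervals lay next to each other without overlap. These values came from 769, 2367 and 1601 tags at Egr1, 1753, 2985 and 2192 at Egr2, and 830, 1443 and 1180 at Egr3.

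**Figure D2:**
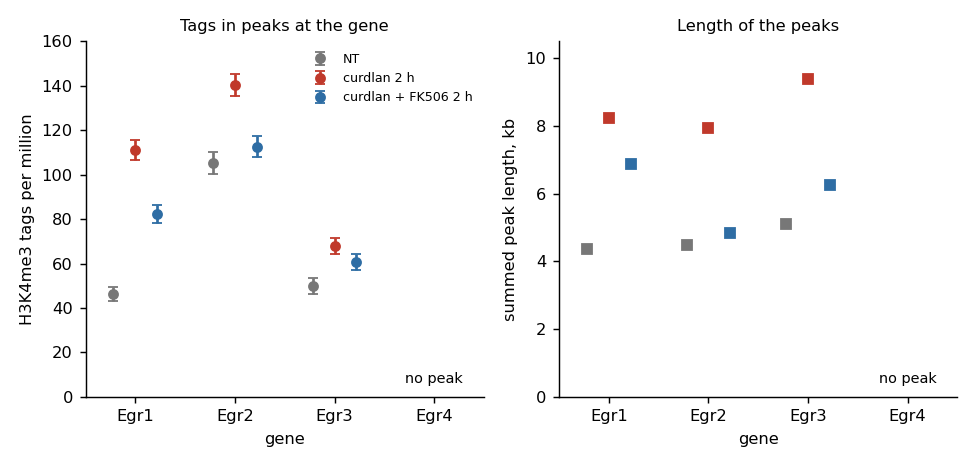
Left, normalised H3K4me3 tags (per 1000000 library tags) in peaks at each Egr gene, with exact 95% Poisson intervals as bars; right, summed peak length in kb, both by gene on the horizontal axis and by condition in colour, 1 library per condition. Curdlan (red) is highest for Egr1, Egr2 and Egr3 in both panels, curdlan with FK506 (blue) lies between it and NT (grey), and Egr4 had no peak.

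For the question of what curdlan changes, log2 ratios were taken relative to the median over the 13019 genes with a peak in both lists, which was -0.13 before centring. By tags summed over the called peaks, which were longer with curdlan, Egr1 was at 1.40 (1.28 to 1.52, exact conditional binomial 95% interval), a fold of 2.64, and ranked 83 of 13019. Egr3 was at 0.58 (0.45 to 0.70) and Egr2 at 0.55 (0.46 to 0.63), folds of 1.49 and 1.46 that stayed just under the 1.5-fold line used for calls. So 1 of 3 members with peaks passed 1.5-fold upward, where 3.77% of all genes did. Without centring the ratios were 1.27, 0.44 and 0.41. The differences at all 3 genes depended on the measure. Normalised tags per kb of peak were 23.5 in NT, 17.7 with curdlan and 23.3 with FK506 at Egr2, 9.76, 7.22 and 9.70 at Egr3, and 10.6, 13.5 and 12.0 at Egr1. Centred, the ratio per kb for curdlan over NT was 0.54 at Egr1, under the 1.5-fold line, and -0.23 and -0.25 at Egr2 and Egr3. By the fold enrichment of the largest peak, which MACS takes against the input, NT and curdlan were at 64.3 and 107 for Egr1, 26.7 and 132 for Egr2, and 27.4 and 64.6 for Egr3. Since the median gene was 0.73 higher on the log2 scale in that measure, the centred ratios were 0.01 for Egr1, 1.58 for Egr2 and 0.51 for Egr3, and the gene past 1.5-fold was then Egr2. Per length, Egr2 carried the most mark of the family in every condition and Egr3 the least, and the tags gained at Egr2 and Egr3 were spread over longer peaks.

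The peaks lengthened at all 3 genes. At Egr1 their length was 4369 bp in NT, 8224 bp after curdlan and 6869 bp after curdlan plus FK506. At Egr2 it was 4478, 7930 and 4836 bp, and at Egr3 5106, 9387 and 6251 bp. Curdlan over NT gave 1.88, 1.77 and 1.84-fold for Egr1, Egr2 and Egr3, so 3 of 3 passed 1.5-fold, where 3.49% of all genes did. With only the peak of the most tags, 2 of 3 passed, since Egr3, whose curdlan signal was called as 2 peaks, was then at 1.16-fold. By summed lengths the order was the same at each gene, with NT shortest and curdlan longest. By the peak of the most tags alone, Egr3 was longest with FK506, at 6251 bp against 5925 bp with curdlan. Egr1 was then shortest with FK506, at 4093 bp against 4369 bp in NT. A peak in a deeper library can be called over a longer stretch, and the curdlan library was the deepest, at 21289349 tags against 16662316 for NT. The median gene's downstream edge lay 49 bp further out with curdlan than in NT. The part of depth in the lengths of the Egr peaks was not tested.

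The added length lay mostly downstream of the start, in part past the gene's end, and at Egr2 and Egr3 almost all of it lay downstream. The downstream edge lay 1594 bp past the start in NT and 4475 bp past it with curdlan at Egr1, 2300 and 5503 bp at Egr2, and 1361 and 5615 bp at Egr3. The edge thus moved out by 2881, 3203 and 4254 bp, while the upstream edge moved out by 974, 249 and 127 bp. Of the outward movement of both edges, 74.7%, 92.8% and 97.1% was downstream. In NT the peaks covered 42.2% of the Egr1 gene, 66.7% of Egr2 and 50.2% of Egr3. With curdlan they covered 100% of each and ran past the annotated end, which lies 3777, 4319 and 2712 bp past the start. The share of all genes covered in full was not computed. At Egr1 the curdlan peak also reached the start of Gm17507, so its tags there cannot be told apart from those of Egr1. An outward shift of at least 2 kb, a measure chosen after the values were seen, was met by 3 of 3 members and by 2.02% of the 4165 genes up to 10 kb long with peaks in both lists.

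**Figure D3:**
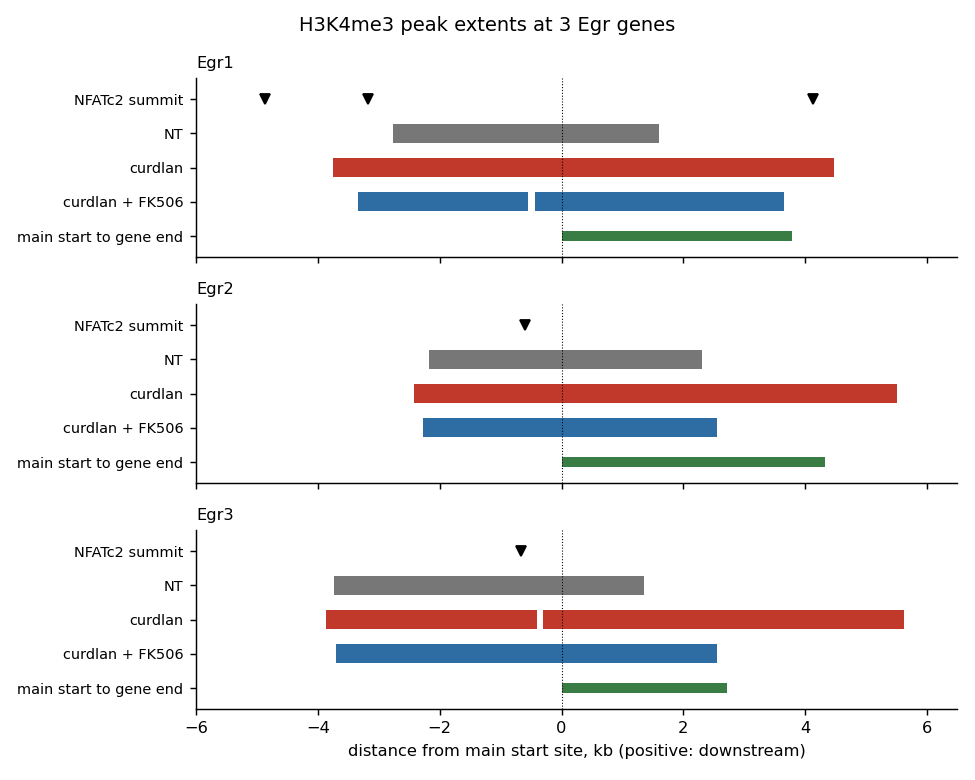
Extent of H3K4me3 peaks (bars) in NT, curdlan and curdlan with FK506 at Egr1, Egr2 and Egr3, in kb from the main start site on the horizontal axis, with NFATc2 summits as triangles and the gene from that start to its end in green. The right-hand edges of the curdlan bars pass the gene end at all 3 genes, and with FK506 they fall back to 3652, 2557 and 2546 bp from the start.

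With FK506 the values fell short of those with curdlan alone, by different amounts for tags and for length. Relative to the median gene (-0.04 over 12996 genes), the log2 ratio of curdlan with FK506 over curdlan was -0.39 (-0.48 to -0.30) at Egr1, -0.27 (-0.35 to -0.19) at Egr2 and -0.12 (-0.23 to -0.01) at Egr3, while per kb of peak it was -0.16, 0.41 and 0.44. None of the 3 passed 1.5-fold downward, where 1.45% of genes did. All 3 were below 0, as were 50% of all genes by the centring and 66.9% without it. Peak length was 0.835, 0.610 and 0.666 times that with curdlan, and 2 of 3, Egr2 and Egr3, were shorter by a factor of at least 1.5, where 2.39% of genes were. The downstream edge came back by 2946 bp at Egr2 and 3069 bp at Egr3 but by 823 bp at Egr1. An inward shift of at least 2 kb was met by 2 of 3 members and by 1.39% of genes up to 10 kb long. By sums over all peaks, Egr1 had the largest difference in tags and the smallest in length. With only the peak of the most tags, the Egr1 length ratio was 0.498, below the 0.610 of Egr2 and the 1.055 of Egr3.

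Curdlan with FK506 was also set against NT, and since these 3 comparisons share libraries they are not independent of each other. The centred ratio was 1.01 (0.89 to 1.14) at Egr1, 0.46 (0.33 to 0.59) at Egr3 and 0.28 (0.19 to 0.37) at Egr2, so 1 of 3 passed 1.5-fold upward, where 3.02% of 12997 genes did. Before centring the Egr2 ratio was 0.10 (0.01 to 0.19). Peak length was 1.57, 1.08 and 1.22-fold that of NT at Egr1, Egr2 and Egr3, and 1 of 3 passed 1.5-fold, where 2.39% of genes did. Of the normalised tags added by curdlan over NT, before centring, 55.5% were present with FK506 at Egr1, 21.1% at Egr2 and 60.1% at Egr3. From the centred folds these shares were 62.0%, 45.9% and 76.8%, so they moved with the scaling. Of the added length, 64.9%, 10.4% and 26.7% were present. By these sums Egr2 with FK506 was the closest of the 3 to NT in tags and in length.

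The peaks were not always in 1 piece. At Egr1 the list for curdlan with FK506 held 2 peaks of 619 and 982 tags, parted by 118 bp just upstream of the start, and at Egr3 the curdlan list held 2 peaks of 678 and 765 tags, parted by 100 bp. All other lists had 1 peak at each of the 3 genes. When the largest peak alone was used, the ratio of curdlan over NT at Egr3 was -0.35 and that of curdlan with FK506 over curdlan 0.80, and at Egr1 the latter was -1.10. The sums over pieces are the values given above.

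The curdlan peaks took in NFATc2 summits that lay outside H3K4me3 in NT. Of the 20 summits, 6 lay in H3K4me3 peaks of the NT list, 10 in those of the curdlan list and 7 in those of the FK506 list, against 23.8%, 23.3% and 22.5% of all NFATc2 summits. The 3 summits inside a peak with curdlan alone were those 84.5 kb upstream of Egr1, at Kdm3b, 4125 bp downstream of the Egr1 start and 15.2 kb upstream of Egr3. The summit 3172 bp upstream of Egr1 was inside a peak in both stimulated lists. The promoter summits of Egr2 and Egr3 were inside peaks in all 3 lists, and 10 summits were in none. NFATc2 was mapped at 30 min and the mark at 2 h, in different samples.

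The region 13.0 kb upstream of Egr3, at chr14:70461459-70466999, had H3K4me3 in all lists, no annotated TSS within 1 kb and the NFATc2 summits of 326 and 298 tags inside its bounds. It held 25.1 normalised tags in NT, 37.6 after curdlan and 19.4 after curdlan plus FK506, over 3819, 5420 and 3843 bp. The curdlan value was the highest and the value with FK506 the lowest of the 3. Before centring, its log2 ratios were 0.58 (curdlan over NT) and -0.96 (curdlan with FK506 over curdlan), against 0.44 and -0.16 at the Egr3 gene itself. The region 5.4 kb upstream of Egr1, which held the summit of 267 tags, had 32.6, 35.8 and 30.3 normalised tags. It ends at 35017101, and the Egr1 peak of the curdlan list starts at 35017113. With peaks within 5 kb of a TSS counted, the centred Egr1 ratio of curdlan over NT was 1.03 in place of 1.40. Within 20 kb of Egr2 the only other marked region was the start of Ado, with 119, 99.9 and 85.3 normalised tags.

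At Egr4 no list held a peak on the gene or within 1 kb of its TSS, and the nearest peak was 56.9, 56.8 and 56.5 kb away in the 3 lists (NT, curdlan, curdlan with FK506), at the start of 1700040I03Rik. Egr4 thus lacked both NFATc2 summits and H3K4me3 peaks, a description of 1 gene. No summit was present at 10001 of 22380 protein-coding genes. Of 37310 annotated genes, 13019 had H3K4me3 peaks in both the NT and curdlan lists. A link between the summits and the mark was not tested.

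Partners and comparable genes gave the setting. The corepressor genes Nab1 and Nab2 had centred log2 ratios of 0.33 and 0.44 for curdlan over NT and -0.12 and -0.25 for curdlan with FK506 over curdlan, and 0 of 2 passed 1.5-fold, where 3.77% of all genes passed upward with curdlan and 1.45% downward with FK506. The same shares are the background of the next lists. Both had 2 NFATc2 summits within 100 kb. Among the 6 transcription factor genes upstream of Egr transcription (Srf, Elk1, Elk3, Elk4, Mkl1 and Mkl2), which encode SRF, its ternary complex partners and its coactivators, 0 passed in any comparison, with values from -0.32 to 0.33 and a median of -0.09 for curdlan over NT. Of 5 genes known to be raised by EGR2 and EGR3 in lymphocytes, Fasl had no peak in any list, and 1 of the other 4 passed upward. This was Socs3, an inhibitor of cytokine signalling, at 1.03, and it was at 0.05 for curdlan with FK506 over curdlan. The next highest, the cell-cycle inhibitor gene Cdkn1a, was at -0.05.

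Of 16 other immediate-early genes, 5 passed 1.5-fold upward with curdlan (median 0.24), where 3.77% of all genes did around a median of 0 by centring. The largest values were those of Nr4a1, an orphan nuclear receptor gene, at 3.96, and of Dusp2, a MAP kinase phosphatase gene, at 3.52. Nr4a1 was at -0.98 for curdlan with FK506 over curdlan, the 1 of 16 that passed downward, and Dusp2 at -0.35, where 1.45% of all genes passed downward. The median of the list in that comparison was 0.03, and 10 of 16 genes were above 0. The Egr1 ratio of 1.40 was thus above that of 14 of the 16 and below those of Nr4a1 and Dusp2.

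**Figure D4:**
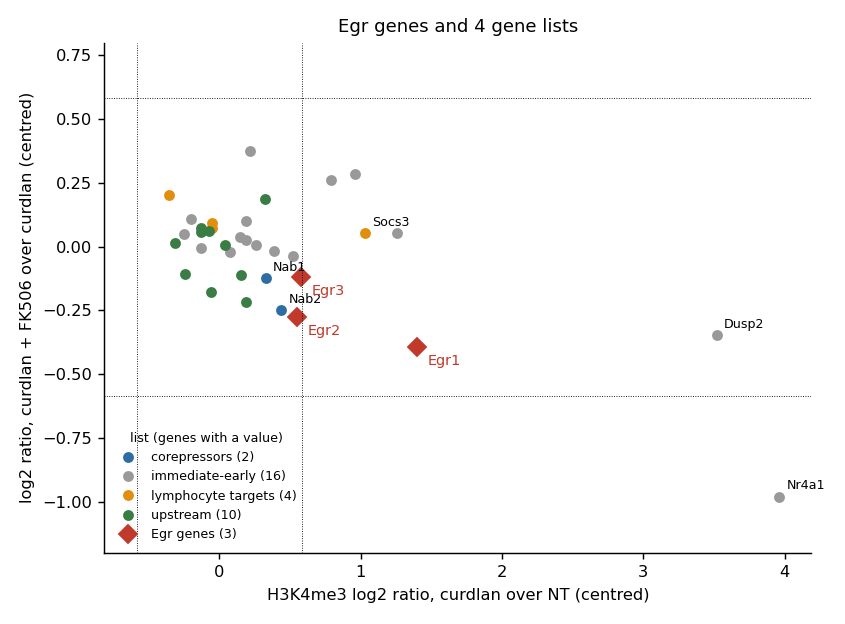
Centred log2 ratio of normalised H3K4me3 tags for curdlan over NT (horizontal axis) and for curdlan with FK506 over curdlan (vertical axis) at the 3 Egr genes with peaks (diamonds) and the genes of 4 lists (circles), 1 library per condition, dotted lines at 1.5-fold. Egr1 lies at 1.40 and -0.39, below Dusp2 and Nr4a1 on the horizontal axis. Egr2 lies at 0.55 and -0.27 and Egr3 at 0.58 and -0.12. Both axes share the curdlan library.

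Among 10840 protein-coding genes with at least 100 tags in every list, those closest in these 2 ratios, by straight distance, were Ccl17, BC006779 and Obsl1 for Egr1, 4931429P17Rik and Tmem131 for Egr2, and Spag9, B3gnt2 and Gimap5 for Egr3. Ccl17, which encodes a chemokine of dendritic cells, was at 1.35 and -0.36 with 435, 1297 and 895 tags. The likeness rests on 3 libraries and is a description only.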

How the data were processed

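ChIP and input DNA of D1 cells was sequenced in 8 libraries, 1 ChIP and 1 input for each of 4 peak lists. The authors mapped reads to mm9 (NCBI mouse build 37) with Bowtie, removed duplicates and called peaks with MACS (1.4.2 per the file headers, another minor release in the methods) at a p cutoff of 1e-05. The deposited lists give for each peak a tag count, a score of -10 times the log10 of p, a fold enrichment ratio over the local background and an FDR in percent. There were no replicates to pool. Tag totals before and after the duplicate filter are equal in the headers. From the lists, summits and peaks were assigned to genes of the GENCODE annotation of Ensembl release 65, tags were divided by the library total and given per 1000000 tags, and log2 ratios were centred on the median over genes with peaks in both lists. Intervals are exact Poisson and exact conditional (Clopper-Pearson) binomial intervals at 95% and cover counting error only. No test between conditions was made. A call means 1.5-fold. Tag ratios and the binomial intervals were tested on simulated counts. The assignment of H3K4me3 peaks to genes was checked against a direct scan of real NT peaks. The summit, motif, length and edge steps were not part of that test. Python 3.11.15, pandas 2.3.3, numpy 2.4.6, scipy 1.17.1 and matplotlib 3.10.9 were used. Promoter sequences are from RefSeq (GRCm38.p6). Named genes were all 4 members, Nab and upstream genes past the call, the 2 highest of each other list for curdlan over NT, and the 3 closest genes per member; Nab1 and Nab2 are given although neither was called. The kinases of the upstream list and 1 of the closest genes are not reported here. The members and lists were chosen with earlier results of these data known. Alternatives covered windows, peak thresholds, scaling and motif windows.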

Additional observations from a re-analysis of the deposited data

How the results depend on the processing

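No paired analysis was possible because each condition had 1 ChIP library and none could be left out. The 20 NFATc2 summits became 9 within 30 kb, 5 within 10 kb and 9 where the Egr gene was the nearest protein-coding gene, and were 16 and 20 under a p of 1e-10 and an FDR of 5%. By gene, Egr2 went from 8 to 1 within 30 kb, and Egr1 from 5 to 3 at the stricter p. Members past 1.5-fold went from 1 to 0 for curdlan over NT per kb of peak. For curdlan with FK506 over curdlan they went from 0 to 1 by fold enrichment and by the largest peak alone, and for curdlan with FK506 over NT from 1 to 0 per kb, 2 by fold enrichment and 0 by the largest peak. The log2 ratio changed sign per kb at Egr2 and Egr3 (-0.23 and -0.25 for curdlan over NT, 0.41 and 0.44 for curdlan with FK506 over curdlan). By fold enrichment it did so at Egr3 (0.18, curdlan with FK506 over curdlan) and Egr1 (-0.17, curdlan with FK506 over NT). By the largest peak it did so at Egr3 (-0.35 and 0.80), where the length ratio of curdlan with FK506 over curdlan became 1.055 and that of curdlan over NT 1.16, because the curdlan list splits that region into 2 peaks. Members at least 1.5 times longer with curdlan then numbered 2 in place of 3. The Egr1 length ratio of curdlan with FK506 over curdlan went from 0.835 to 0.498, because the list with FK506 holds 2 peaks at Egr1. Summits with GGAAAA went from 7 to 4 within 50 bp and 12 within 250 bp, and 18 had GGAAA; the GGAAA word and the uncentred ratios were added after seeing the data. The cause of the other changes was not tested. The counts of members past 1.5-fold were the same with peaks within 5 kb, peaks of FDR up to 5%, scaling to tags in peaks and no centring. Peak lists hold no signal where no peak was called, which limits what can be said of Egr4.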
